A study of Mus musculus with 10 samples.

Results

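The receptors described are the products of 10 genes of the T cell surface: Cd28, Icos, Cd5, Cd6, Thy1, Pdcd1, Lag3, Btla, Cd160 and Cd200. They were taken as every probe set (a group of short probes for 1 transcript) whose platform annotation names exactly 1 gene symbol, with that symbol among the 10. This gave 16 probe sets, of 34945 probe sets with 1 symbol that stand for 18193 genes. Spleens of C57Bl/6 mice 8 to 12 weeks old were the source of CD4+ cells, collected 6 h after an operation, and each mouse gave 1 Affymetrix array. The operation was cecal ligation and puncture (CLP), a standard model of abdominal sepsis, in 5 mice. In 5 sham mice the cecum was brought out and handled but left intact. Both groups had halothane and a laparotomy, and mice without surgery were not analysed here. Cells were enriched to about 91% CD4+ by immunomagnetic removal of other cells, per the study description, so a minority of other spleen cells remained.

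A T cell answers antigen through its receptor, and surface receptors of this kind raise or lower that answer. Cd28 and Icos, which bind ligands of the B7 family on antigen-presenting cells, add a costimulatory signal through phosphoinositide 3-kinase. Pdcd1 (PD-1), Lag3 and Btla are inhibitory receptors, and Cd5 dampens signalling from the antigen receptor. Loss or gain of such receptors on lymphocytes is a known theme in the study of immune suppression during sepsis.

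Levels are linear intensities, multiplied by 1 factor per array so that all arrays have a median of 133.9. Tests used limma on the log2 of these, with any level under 70.4 (the floor, taken at the 25th percentile) raised to that floor. Adjusted p-values are Benjamini-Hochberg values over 27022 tested probe sets, with a threshold of 0.05. Precision is limited by the number of arrays. Of the 16 receptor probe sets 15 passed the filter on low values and 1, of Cd160, did not. The arrays of CLP replicates 2 and 4 and sham replicates 2 and 4 stood apart. Their 18S ribosomal RNA control signal was between 194.3 and 268.4, against 3134 to 5178 in the other 6 arrays. Their ratio of 3 prime to 5 prime signal for Gapdh was 9.45 to 13.4, against 20.7 to 29.5. The same ratio for beta-actin overlapped, at 7.40 to 10.8 against 6.25 to 11.7. Each class held mice of both groups, so results are also given with the class as a block and within each class. The T cell identity of the samples was plain in both groups: Cd3e had a log2 signal of 11.36 ± 0.10 in CLP arrays and 11.48 ± 0.12 in sham arrays, and Cd4 had 10.72 ± 0.12 in CLP arrays and 10.84 ± 0.29 in sham arrays (SD, n = 5 each).

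At 6 h no receptor probe set passed the threshold in the comparison of all CLP with all sham mice. Of the 15 tested probe sets the lowest relative to sham were Thy1, at a log2 fold change of -0.79 ± 0.27 (limma's SE), and Cd5, at -0.69 ± 0.17. With the 18S class as a block Thy1, Cd5 and 1 of 3 tested Cd160 probe sets fell. Btla was the 1 tested receptor probe set whose scaled CLP values all lay above the scaled sham values, by a small margin. The Icos values of the 2 groups overlapped widely and those of Pdcd1 in part. Lag3 was lower in 4 of 5 CLP arrays than in any sham array, 1 of them barely, without passing the test.

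The background sets the scale of these counts. By limma 0 of 15 tested receptor probe sets rose and 0 fell, where 0.167% of all tested probe sets rose and 0.537% fell (at an unadjusted p under 0.05, 1 receptor probe set was higher and 4 were lower, where 3.45% of all tested probe sets were higher and 7.48% lower). With the 18S class as a block 0 rose and 3 fell, where 0.648% of all tested probe sets rose and 2.01% fell. A lower mean in CLP arrays was seen for 11 of the 15, where 48.7% of all tested probe sets had one. Their median log2 fold change was -0.11, beside 0.00 over all tested probe sets.

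**Figure D1:**
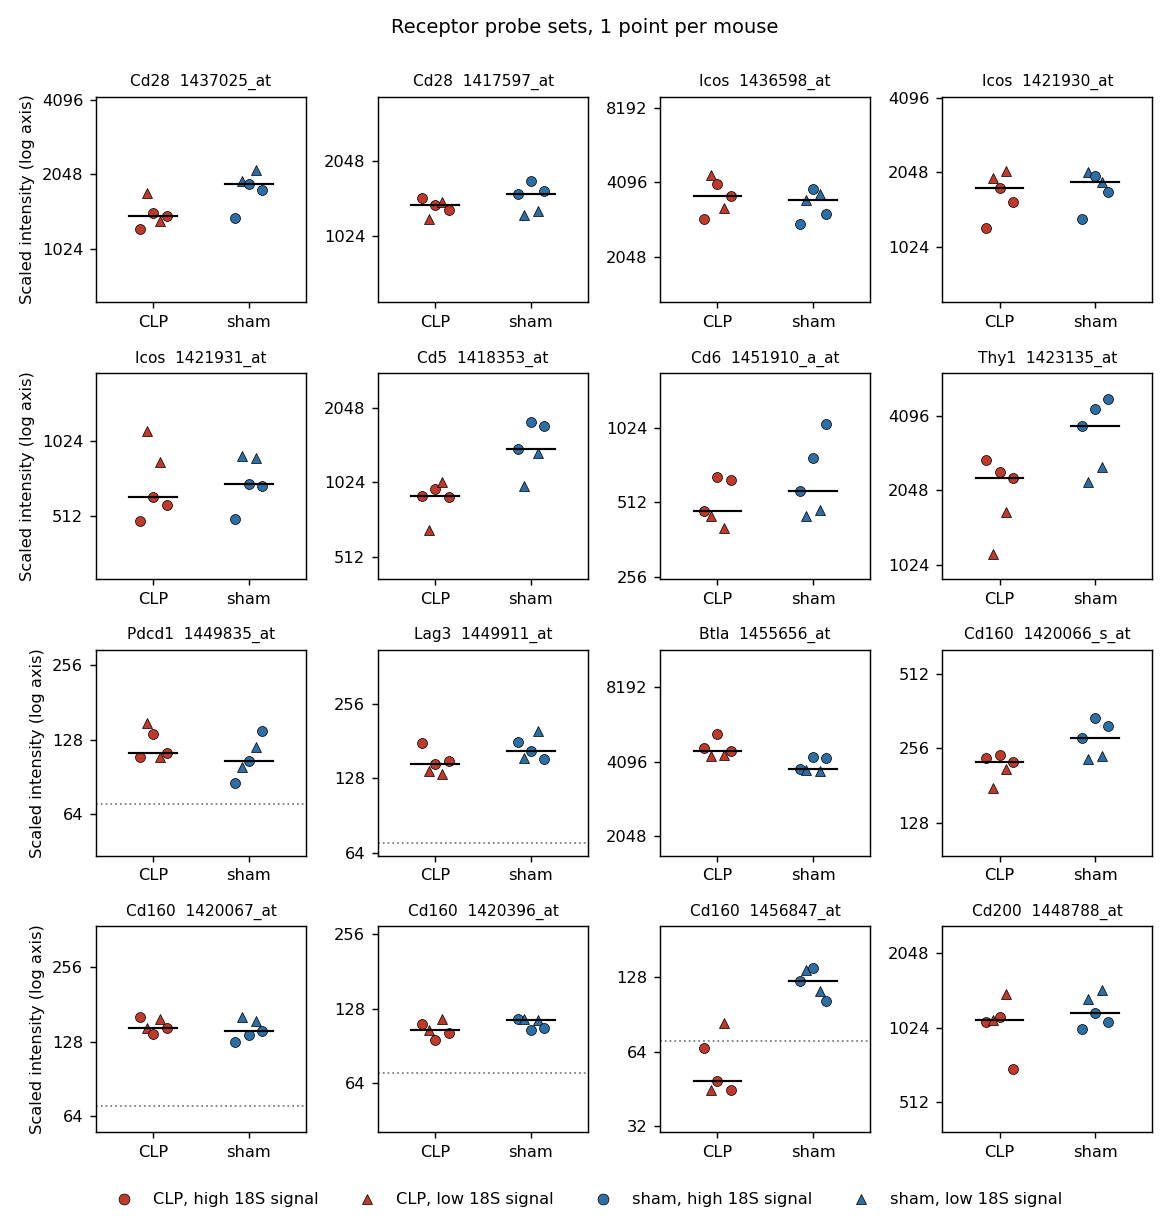
Scaled intensity on a log axis of each of the 16 receptor probe sets, 1 point per mouse, CLP on the left and sham on the right of each panel. Circles are arrays of high and triangles arrays of low 18S signal, horizontal bars are group medians, and the dotted line is the floor of 70.4. The groups are separated in Btla and in the dim Cd160 probe set 1456847_at, and overlap in the other 14.

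Promoters stood in a RefSeq table (GRCm38.p6; 250 bases before to 50 after a gene's start) for 5 of the 10 genes, as 6 entries. Those of Cd5 and Cd160 are shown as genes with a probe set that fell under the block. That of Btla is shown as the gene whose scaled CLP values all lay above the scaled sham values, although it did not pass the threshold. Those of Pdcd1 and Cd200 are not shown. Cd160 has 2 entries in the table, at 2 starts, and both are shown. Capitals mark GGAAG, the core bound by ETS factors, or its reverse complement CTTCC.
Cd5, chr19:10738925-10739224, minus strand: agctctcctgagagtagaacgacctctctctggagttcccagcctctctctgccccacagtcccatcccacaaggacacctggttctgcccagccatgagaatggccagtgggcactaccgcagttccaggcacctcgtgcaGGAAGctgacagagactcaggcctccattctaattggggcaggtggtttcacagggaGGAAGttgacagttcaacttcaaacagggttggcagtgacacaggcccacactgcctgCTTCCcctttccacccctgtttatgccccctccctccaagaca
Cd160, chr3:96814472-96814771, minus strand: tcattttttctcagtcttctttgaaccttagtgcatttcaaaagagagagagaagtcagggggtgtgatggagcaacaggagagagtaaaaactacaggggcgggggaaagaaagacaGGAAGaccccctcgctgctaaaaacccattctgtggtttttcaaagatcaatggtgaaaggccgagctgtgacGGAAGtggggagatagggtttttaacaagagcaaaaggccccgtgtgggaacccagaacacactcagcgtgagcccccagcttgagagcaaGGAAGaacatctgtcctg
Cd160, chr3:96829302-96829601, minus strand: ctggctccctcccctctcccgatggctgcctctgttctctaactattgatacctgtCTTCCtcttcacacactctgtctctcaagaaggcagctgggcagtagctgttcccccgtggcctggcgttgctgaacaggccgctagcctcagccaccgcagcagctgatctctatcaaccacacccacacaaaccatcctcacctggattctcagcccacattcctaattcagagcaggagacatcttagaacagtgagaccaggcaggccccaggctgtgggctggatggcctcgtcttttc
Btla, chr16:45224087-45224386, plus strand: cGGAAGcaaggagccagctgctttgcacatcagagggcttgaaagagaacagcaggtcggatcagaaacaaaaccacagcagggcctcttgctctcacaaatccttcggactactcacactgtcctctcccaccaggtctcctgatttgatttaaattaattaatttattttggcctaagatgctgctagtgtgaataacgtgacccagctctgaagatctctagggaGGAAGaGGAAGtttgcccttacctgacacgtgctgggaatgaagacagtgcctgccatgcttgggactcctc

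GGAAG occurred 3 times each in the Cd5 and Btla windows, and 3 times in the Cd160 window that starts at 96814472 but 1 time in that at 96829302, and 71.4% of all 32851 promoters hold it on 1 strand or the other. The Runx core TGTGGT (or ACCACA) was absent from the Cd5 window and occurred 1 time in the Btla window and in each Cd160 window, with 16.8% of all promoters holding it. The glucocorticoid receptor motif AGAACA (or TGTTCT) was absent from the Cd5 window, occurred 2 times in each Cd160 window and 1 time in that of Btla, and is held by 19.0% of all promoters. The E-box CANNTG occurred 2 times each in the Cd5 and Btla windows, and 1 time in the Cd160 window at 96814472 but 3 times in that at 96829302, and 72.3% of all promoters hold it. None of the 4 windows held TATAAA (or TTTATA), which 13.6% of all promoters do. These are matches of letters and say nothing of binding.

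Cd28, the costimulatory receptor for Cd80 and Cd86, was read by 2 probe sets. Probe set 1437025_at had 1227, 1727, 1429, 1324 and 1394 in CLP replicates 1 to 5, against 1365, 1933, 1870, 2136 and 1766 in sham replicates 1 to 5. CLP replicates 1 and 4 lay below every sham array, and sham replicate 1 lay within the CLP range, so the groups overlapped. Its log2 fold change was -0.35 ± 0.13 (95% interval -0.63 to -0.06; limma adjusted p = 0.312), and the adjusted p was 0.14 with the 18S class as a block. Probe set 1417597_at had 1450, 1201, 1357, 1399 and 1306 in CLP replicates 1 to 5, against 1510, 1243, 1710, 1293 and 1546 in sham replicates 1 to 5. Its groups overlapped widely, at -0.11 ± 0.10 (95% interval -0.34 to 0.11; adjusted p = 0.832). Both probe sets of Cd28 therefore had a lower mean in CLP arrays and neither passed. In arrays of low 18S signal alone the second gave 0.03 ± 0.14, against -0.21 ± 0.11 in those of high signal.

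Icos, the costimulator of activated and follicular helper T cells, was read by 3 probe sets. Probe set 1436598_at ran from 2913 to 4367 with a median of 3600 in CLP arrays, against 2789 to 3855 with a median of 3482 in sham arrays. Its log2 fold change was 0.10 ± 0.13 (95% interval -0.19 to 0.39; limma adjusted p = 0.909). The other probe sets, 1421930_at and 1421931_at, gave -0.07 ± 0.16 and -0.04 ± 0.23. Their signs were not stable: they were positive in 2 and 7 of 26 alternatives, quantile normalization among those of 1421931_at. The last of these varied most between mice: it had 487.3, 1128, 613.5, 847.4 and 564.6 in CLP replicates 1 to 5, against 497.1, 892.3, 691.1, 880.4 and 679.2 in sham replicates 1 to 5. Its 4 highest values were those of the 4 arrays of low 18S signal, which averaged 0.67 log2 units above the others within groups.

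Cd28 and Icos lie on mouse chromosome 1 with 1 protein-coding gene between them, Ctla4, the inhibitory receptor that competes with Cd28 for its ligands. Ctla4 gave 1.44 ± 0.29 by limma, just short of the threshold (adjusted p = 0.0513, and 0.028 with the 18S class as a block). Its brightest probe set had a log2 signal of 10.59 ± 0.65 in CLP arrays and 9.15 ± 0.39 in sham arrays (SD, n = 5 each). The values of the 3 neighbours thus stood apart from each other: 1.44 for Ctla4, beside -0.35 for Cd28 and 0.10 for Icos by their brightest probe sets. The difference between these genes was not tested. Of the regulatory T cell markers, Foxp3 gave 1.10 ± 0.22 (limma adjusted p = 0.053, and 0.0277 with the 18S class as a block) and Nrp1 gave -1.29 ± 0.27 (adjusted p = 0.0616, and 0.0263 with the block). Of the other markers of that list, Tnfrsf18 gave 0.63, Gpr83 -0.43, Ikzf2 -0.29 and Il2ra -0.10, and did not pass in either fit. The summed level of 7 such markers, Ctla4 itself among them, was 4751 to 6252 in CLP arrays and 4304 to 6005 in sham arrays. The sum is thus no separate measure beside Ctla4. The part of regulatory T cell content in the values of Icos and Ctla4 was not tested.

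Cd5, a scavenger-receptor-family protein that restrains antigen receptor signalling and whose surface level follows the strength of that signal, had a lower level in 4 of 5 CLP mice than in any sham mouse. Its 1 probe set (1418353_at) had 906.1, 657.6, 967.1, 1024 and 892.9 in CLP replicates 1 to 5, against 1395, 990.3, 1792, 1342 and 1729 in sham replicates 1 to 5. Of the CLP arrays 4 lay below every sham array, and CLP replicate 4 lay just above sham replicate 2. This is a log2 fold change of -0.69 ± 0.17 (95% interval -1.06 to -0.31), or a 1.61-fold lower level, that did not pass over all tested probe sets (limma adjusted p = 0.102). With the 18S class as a block Cd5 fell (adjusted p = 0.0326).

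Within the arrays of high 18S signal the 3 CLP values of Cd5 lay between 892.9 and 967.1 and the 3 sham values between 1395 and 1792, with no overlap and a difference of -0.82 ± 0.13 (adjusted p = 0.065). Within those of low signal the groups overlapped, at -0.49 ± 0.28. The 3 genes whose centred log2 values over the 10 arrays lay nearest to those of Cd5 were Stambpl1, Ms4a4d and Itgb7, with root mean square differences of 0.055, 0.139 and 0.152. Of these Itgb7, the beta 7 integrin of gut-homing lymphocytes, is a surface protein known on T cells, and its fold change was -0.63.

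Cd6, a relative of Cd5 that binds Alcam, is its next protein-coding neighbour on chromosome 19. Its probe set (1451910_a_at) had 470.6, 448.4, 645.4, 402.9 and 626.1 in CLP replicates 1 to 5, against 570.2, 448.6, 770.6, 475.6 and 1054 in sham replicates 1 to 5. The groups overlapped: CLP replicates 2 and 4 lay below every sham array, the first barely, and sham replicates 3 and 5 lay above every CLP array. Its change was -0.30 ± 0.23 (95% interval -0.81 to 0.21; limma adjusted p = 0.774), and it was -0.12 without sham replicate 5. Alcam itself gave -0.12 ± 0.18 and did not pass.

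Thy1, a glycolipid-anchored glycoprotein that marks mouse T cells, had the largest difference of the 15 tested receptor probe sets and a large spread. Its probe set (1423135_at) had 2727, 1136, 2426, 1676 and 2291 in CLP replicates 1 to 5, against 3730, 2223, 4380, 2549 and 4810 in sham replicates 1 to 5. CLP replicates 2 and 4 lay below every sham array, while sham replicates 2 and 4 lay within the CLP range. These are the 4 arrays of low 18S signal, in which Thy1 averaged 0.85 log2 units below the others within groups. The log2 fold change of -0.79 ± 0.27 (95% interval -1.39 to -0.19) corresponds to a 1.73-fold lower level and did not pass (limma adjusted p = 0.25).

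Once mice were compared within their class the Thy1 groups separated. In arrays of high 18S signal the CLP values ran from 2291 to 2727 and the sham values from 3730 to 4810, a difference of -0.79 ± 0.13 (limma adjusted p = 0.0734). In arrays of low signal they were 1136 and 1676 in CLP mice, against 2223 and 2549 in sham mice, also a difference of -0.79 ± 0.23. With the class as a block the SE was 0.12 and Thy1 fell (adjusted p = 0.0144). Neither class alone gave a call for any probe set of the table, so the call rests on both classes together. The nearest genes in pattern were Rfx1, Galnt10 and Unc5cl, with root mean square differences of 0.147, 0.153 and 0.158 over the 10 arrays.

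Other T cell markers had the same sign as Cd5 and Thy1. All 8 tested CD4 T cell markers had a lower mean in CLP arrays, where 48.7% of all tested probe sets had one. The median of the 8 was -0.12 on the log2 scale and 0 passed. Bcl11b gave -0.25, Cd2 -0.06 and Lef1 -0.001. Trat1, an adaptor of the antigen receptor, gave -0.72 and Cd3g -0.49, and both fell with the 18S class as a block (limma adjusted p = 0.0232 and 0.0426). The summed level of the 8 CD4 T cell markers ran from 18052 to 22810 in CLP arrays and from 21213 to 26828 in sham arrays, so the groups overlapped. In RNA of mixed cells, fewer T cells and less of a transcript per T cell cannot be told apart. The part of T cell content in the values of Cd5 and Thy1 was not tested. Cd3e, Cd3d and Cd4 each differed by -0.12.

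**Figure D2:**
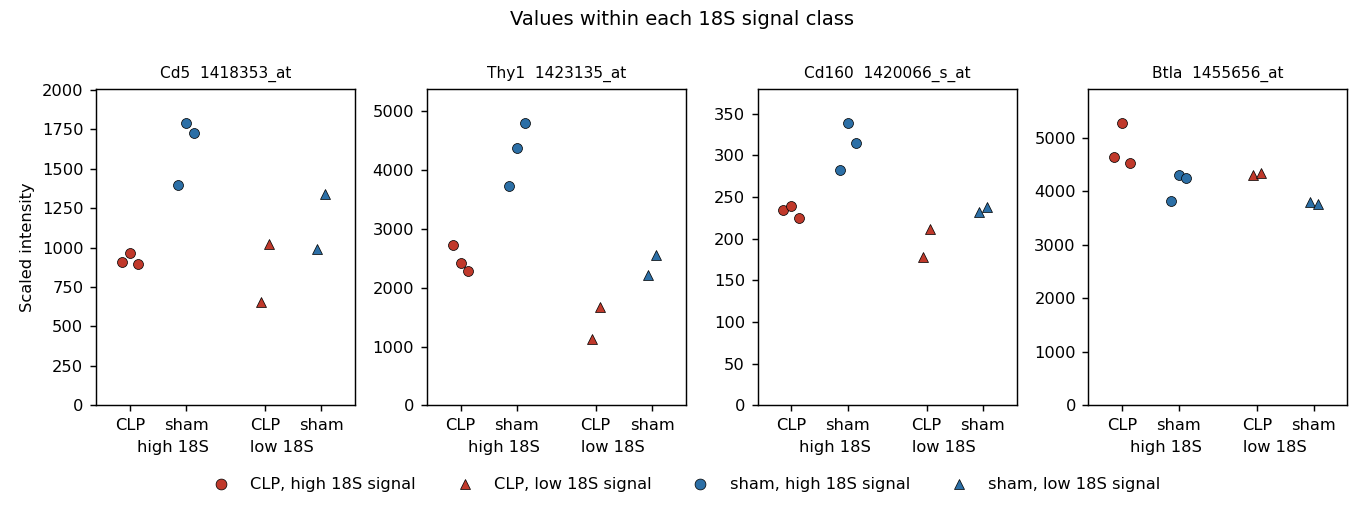
Scaled intensity, on an axis from 0, of the 3 receptor probe sets that fell with the 18S class as a block (Cd5, Thy1 and Cd160 1420066_s_at) and of Btla, 1 point per mouse, with arrays of high 18S signal at the left of each panel and those of low signal at the right. CLP stands left of sham in each class. Thy1 and Cd160 show no overlap within either class and Cd5 none in the high class alone, while Btla lies higher in CLP in both.

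Within the high class 4 of the 15 tested receptor probe sets were lower in CLP arrays without overlap and 1 was higher, where 11.6% and 5.89% of all tested probe sets were. Within the low class 5 were lower and 1 was higher, where 19.2% and 18.7% were. Without overlap in both classes at once, 2 of the 15 tested receptor probe sets were lower in CLP arrays, where 4.98% of all tested probe sets were, and 1 was higher, where 2.11% were. The 2 are those of Thy1 and Cd160, and the other is Btla.

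Btla, an inhibitory receptor of T and B cells that binds the TNF receptor family member HVEM (Tnfrsf14), had every CLP value above every sham value after scaling. Its probe set (1455656_at) had 4638, 4311, 5283, 4349 and 4521 in CLP replicates 1 to 5, against 3817, 3789, 4297, 3754 and 4252 in sham replicates 1 to 5. The groups did not overlap, but the lowest CLP array and the highest sham array were almost level. The separation holds for the scaled levels alone. In the deposited intensities CLP replicate 2 lay below sham replicate 3. Separation with CLP above was seen in 0.862% of all tested probe sets, and with CLP below, as in 0 of the 15, in 2.11%. The difference on the log2 scale was 0.21 ± 0.09 (95% interval 0.02 to 0.40), or 1.16-fold, and it did not pass (limma adjusted p = 0.372, and 0.185 with the 18S class as a block). The summed level of 8 B cell markers was 3045 to 5864 in CLP arrays and 3023 to 4977 in sham arrays, and its part in the Btla value was not tested.

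Cd160, a glycolipid-anchored receptor of natural killer and cytotoxic T cells that also binds HVEM, was read by 4 probe sets that did not agree. The brightest, 1420066_s_at, had 234.6, 178, 239.7, 211.2 and 225.1 in CLP replicates 1 to 5, against 282.8, 232.2, 339.6, 238.6 and 315.4 in sham replicates 1 to 5. CLP replicates 2, 4 and 5 lay below every sham array and replicates 1 and 3 overlapped the lowest sham values, again those of the low 18S class. On the log2 scale the difference was -0.36 ± 0.13 (95% interval -0.65 to -0.08; limma adjusted p = 0.269), and with the class as a block this probe set fell (adjusted p = 0.0475). Its nearest genes in pattern were Eif4a2, Lpar6 and Tmem35b, with root mean square differences of 0.071, 0.078 and 0.081 over the 10 arrays. The _s_at ending marks a probe set designed to match more than 1 transcript.

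The next Cd160 probe sets, 1420067_at and 1420396_at, gave 0.06 ± 0.09 and -0.08 ± 0.08, with CLP values of 136.9 to 161.5 and 95.6 to 116.4, against sham values of 127.4 to 160.1 and 105.1 to 116.8. They are dim and showed no difference beyond the spread. The last, 1456847_at, did not reach the filter on low values. It had 66.5, 45, 48.9, 83.7 and 44.7 in CLP replicates 1 to 5, against 123.1, 136.2, 138.7, 112.3 and 102.5 in sham replicates 1 to 5. Every CLP value lay below every sham value, as in 1.47% of all probe sets taken without the filter (0.728% had every CLP value above), and 4 of the 5 CLP values lay under the floor. With those set to the floor the level was at least 1.67-fold lower in CLP arrays. The exact two-sided permutation p was 0.00794, the smallest that 5 against 5 allows, and any full separation of the groups gives it. Without the filter the limma adjusted p was 0.0647, where 0.00666% of all probe sets fell and 0 rose. With a floor at the 40th percentile the log2 fold change was -0.24 (limma adjusted p = 0.349), since little of the signal lies above that floor. With the 3 tested probe sets averaged, Cd160 gave -0.13 ± 0.07 (limma adjusted p = 0.515).

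The natural killer cell markers were set beside Cd160. Their summed level over 6 genes was 2894 to 3038 in CLP arrays and 3230 to 3804 in sham arrays, without overlap. As a sum of linear levels it is weighted to Klrd1 and Nkg7, the brightest of the tested genes. Klrd1 gave -0.54 (limma adjusted p = 0.195) and Nkg7 -0.24 (adjusted p = 0.205). Gzma gave 0.34, Prf1 0.07 and Klrk1 -0.003, and 0 of the 5 tested passed. The median of the 5 was -0.003. Ncr1, a defining marker, did not reach the filter on low values. With the 18S class as a block Klrd1 fell (adjusted p = 0.0359). The part of natural killer cell content in the Cd160 values was not tested.

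Pdcd1 and Lag3, 2 inhibitory receptors associated with exhausted T cells, were both dim. The Pdcd1 probe set (1449835_at) had 109.5, 150.3, 135.3, 109 and 113.5 in CLP replicates 1 to 5, against 85.7, 99.7, 105.6, 119.3 and 139.5 in sham replicates 1 to 5. The groups overlapped: only CLP replicate 2 lay above every sham array, while sham replicates 1, 2 and 3 lay below every CLP array. The log2 fold change was 0.18 ± 0.14 (95% interval -0.14 to 0.49; limma adjusted p = 0.796). Lag3 (1449911_at), a relative of Cd4 that binds MHC class II, had 176.9, 136.9, 145.4, 132.9 and 150.7 in CLP replicates 1 to 5, against 178.3, 155, 164.6, 197.5 and 152.2 in sham replicates 1 to 5. Of its CLP values 4 lay below every sham value, and CLP replicate 1 lay within the sham range. CLP replicate 5 lay barely below sham replicate 5, and only after scaling. The difference of Lag3 was -0.19 ± 0.11 (95% interval -0.42 to 0.04, limma adjusted p = 0.602). In arrays of low 18S signal Lag3 gave -0.38 ± 0.17 and in those of high signal -0.07 ± 0.12, and the difference between the classes was not tested.

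Cd200, a membrane glycoprotein of T cells, B cells and endothelium that signals to the inhibitory receptor Cd200r1 on myeloid cells, is the next protein-coding neighbour of Btla on chromosome 16. Its probe set (1448788_at) had 1074, 1102, 1126, 1392 and 699.3 in CLP replicates 1 to 5, against 1007, 1336, 1177, 1450 and 1078 in sham replicates 1 to 5. CLP replicate 5 alone lay below every sham array, and the other CLP values lay within the sham range. The difference was -0.19 ± 0.17 log2 units (95% interval -0.56 to 0.19; limma adjusted p = 0.833), and it was -0.04 without CLP replicate 5. Cd200r1 gave -0.15 ± 0.10 and did not pass.

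**Figure D3:**
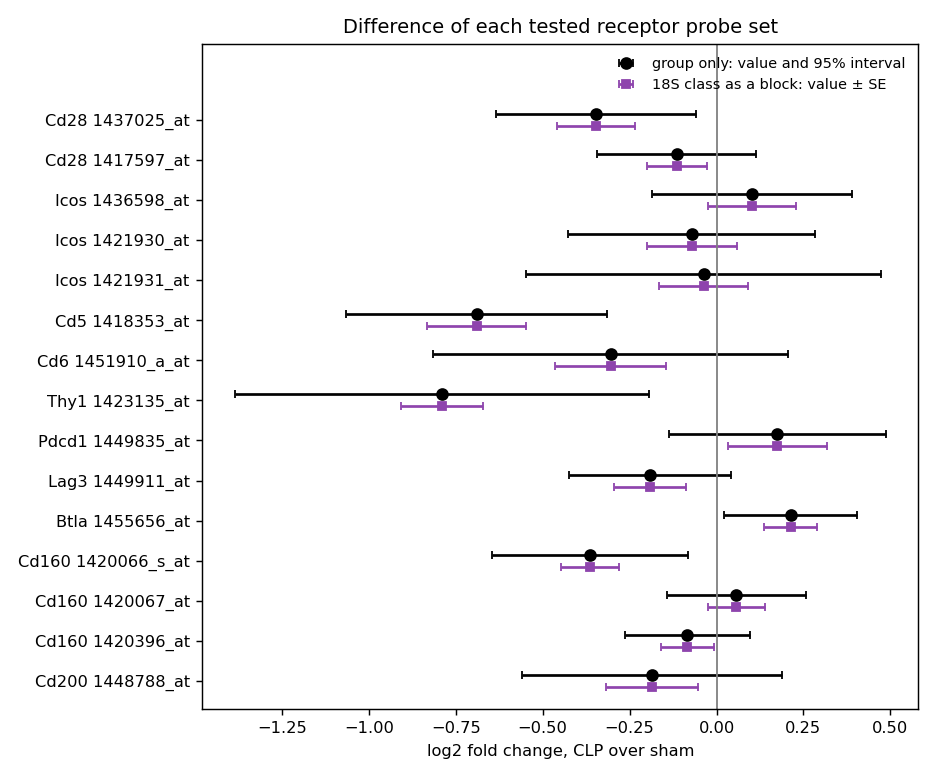
Log2 fold change, CLP over sham, of the 15 tested receptor probe sets. Black points with bars are values with their 95% intervals from the comparison of all mice, and purple squares with bars are values ± SE with the 18S class as a block. Thy1 and Cd5 lie furthest from 0, at -0.79 and -0.69, and the block leaves each value in place and narrows its error.

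The other genes of these pathways were read by their brightest tested probe set, with 26 of 13073 genes (0.199%) higher and 72 (0.551%) lower in CLP arrays over the whole table. Of 16 tested other receptors of T cells 2 rose and 0 fell, with a median log2 fold change of 0.01. The 2 were Tnfrsf9 (4-1BB; 0.94 ± 0.16, limma adjusted p = 0.0311) and Tnfrsf4 (OX40; 0.93 ± 0.18, adjusted p = 0.0441), costimulators of the TNF receptor family. The costimulator Cd27 gave -0.70 ± 0.25 and did not pass (adjusted p = 0.277).

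Of 14 tested ligands and partners 0 rose and 1 fell, with a median of -0.0023. The 1 was Tnfsf14 (LIGHT), a TNF-family ligand of HVEM, the partner that Btla and Cd160 share. It had a log2 signal of 6.49 ± 0.21 in CLP arrays, near the floor of 6.14, and 7.29 ± 0.18 in sham arrays (SD, n = 5 each; log2 fold change -0.80 ± 0.12, limma adjusted p = 0.0225). The filter on low values lay at a mean log2 of 6.71, so Tnfsf14 passed it only through its sham arrays. With that filter at the 60th percentile 3 related genes rose and 0 fell, so this call was lost. HVEM itself did not reach the filter. Of the PD-1 ligands, Cd274 gave 0.19 ± 0.11 and Pdcd1lg2 -0.24 ± 0.11, and of the Cd28 ligands Cd80 gave 0.17 ± 0.11 and Cd86 0.09 ± 0.11, none of which passed. The 3 calls among related genes, of Tnfrsf9, Tnfrsf4 and Tnfsf14, were each lost when CLP replicate 2, 3 or 5 or sham replicate 1, 2, 3 or 4 was left out (0 related genes called).

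Of 26 tested signalling molecules below these receptors 0 rose and 0 fell by limma, with a median of -0.02. The 3 with the lowest p were Cblb, a ubiquitin ligase that sets the need for Cd28 costimulation (0.91 ± 0.19, adjusted p = 0.058), Ptpn22, a phosphatase that restrains antigen receptor signalling (0.55 ± 0.12, adjusted p = 0.0682), and Rasa1, a brake on Ras (-0.38 ± 0.10, adjusted p = 0.12). With the 18S class as a block Cblb and Ptpn22 rose (adjusted p = 0.0253 and 0.0296), where 0.673% of all genes rose and 2.04% fell. Ptpn6 (SHP-1), a phosphatase recruited by inhibitory receptors, gave -0.35 ± 0.12 (adjusted p = 0.245), and Ptpn11 (SHP-2), the partner of PD-1, gave -0.11 ± 0.09.

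**Figure D4:**
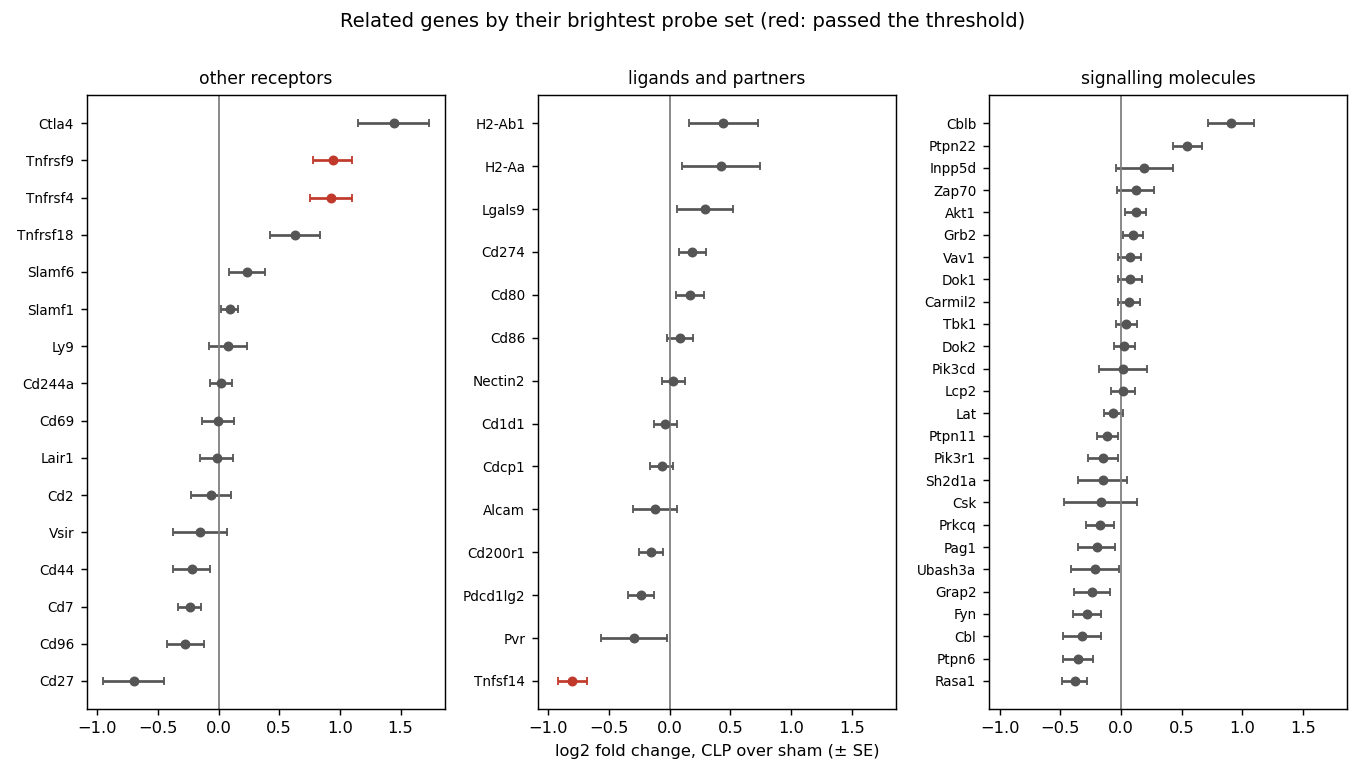
Log2 fold change, CLP over sham, ± SE of the tested genes in the lists of other receptors, ligands and partners, and signalling molecules. Red points passed the threshold: Tnfrsf9 and Tnfrsf4 were higher in CLP arrays and Tnfsf14 was lower.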

How the data were processed

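The authors deposited linear intensities, 1 per probe set and array, for 10 arrays. Per the labels' protocols, cRNA was made by 2 rounds of amplification; for array software and scaling, sources used here give none. Sham arrays all carry replicate 1 in their titles, and their suffix from 1 to 5 is used as the replicate number. Separate mice are named for each array.

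Arrays were scaled to a common median, floored at the 25th percentile and taken to log2. Controls (64 probe sets) and probe sets whose mean fell under the 40th percentile were dropped, which kept 27022 of 45101. Tests were run in R 4.3.3 by limma 3.58.1, with Benjamini-Hochberg adjustment. The fit was tested on simulated data. Symbols come from the platform annotation. The members, lists, 18S split (at an intensity of 1000) and tests were chosen with earlier results of these data known. Every member probe set is named; of each related list, those past the threshold and the 3 with the lowest p, other related genes being named after their values were seen; and the 3 genes most alike in pattern to the 3 members with the largest change. Of the marker lists not described elsewhere (CD8 T, plasma, dendritic, erythroid, platelet, endothelial, follicular helper, neutrophil and monocyte), 0 genes passed. Alternatives were other scalings, floors, filters and variance models, array weights, blocks, a minimum fold of 1.2, averaging, and leaving out each array.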

Additional observations from a re-analysis of the deposited data

How the results depend on the processing

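Of the receptor probe sets 0 were called by limma over all mice (5 at an unadjusted p under 0.05), and 0 under every alternative except blocks: 3 fell with the 18S class as a block, and 2 (Cd5 and Thy1, adjusted p = 0.0404 and 0.0375) with the replicate number as a block. Same-numbered mice did not all deviate together (correlations from 0.063 to 0.582, all above 0), so the numbers were not taken to pair them. The arrays of low 18S signal were nonetheless numbers 2 and 4 in both groups. Whether the numbers mark a shared step of processing was not tested. Both blocks are balanced and leave each difference as it was. Of the receptor probe sets 4 had the opposite sign in at least 1 alternative: Icos 1421931_at in 7 and Icos 1421930_at in 2 of 26, Cd28 1417597_at in 1 of 26 and Cd160 1420067_at in 1 of 25. Over all tested probe sets 190 calls were made, against 248 with the replicate block, 718 with the 18S block, 509 with array weights, 3 without the filter on low values, 0 in either 18S class alone and 0 against a minimum fold of 1.2. Leaving out 1 array gave 4 (without sham replicate 3) to 507 (without CLP replicate 1), with 0 receptor probe sets called each time. Of the related genes 3 were called, against 5 with the replicate block, 6 with the 18S block, 7 with array weights, 5 with probe sets averaged, and 0 without the filter, in either class alone or against a minimum fold of 1.2. Leaving out 1 array gave 0 (without CLP replicate 2, 3 or 5 or sham replicate 1, 2, 3 or 4) to 6 (without CLP replicate 1). Dim signals limit Pdcd1, Lag3 and Cd160.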
